A study of Cricetiscus sungorus with 216 samples.

Results

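The paraventricular nucleus of the hypothalamus (PVN) was compared between Djungarian hamsters held in short photoperiod (SP) for 8, 12, 16 or 20 weeks and hamsters kept in long photoperiod (LP). The 30 PVN libraries with these labels were taken from the 216 libraries of the series, and 2 of them, LP replicate 1 with 159 counts and 16-week replicate 4 with 5158 counts, were left out because they held fewer than 10000 counts. The remaining 28 libraries were 5 from LP, 6 from 8 weeks, 6 from 12 weeks, 5 from 16 weeks and 6 from 20 weeks of SP. All hamsters were adult males of 1 colony with free access to food, and the LP hamsters stayed in LP throughout. Each library came from bilateral tissue punches of coronal brain sections, so it holds the nucleus with whatever tissue lay beside it in the punch, and a lower level of a transcript can reflect fewer cells of a type or less RNA per cell, which cannot be told apart here. RNA was sequenced as PCR-amplified cDNA on the nanopore platform, and isoform counts were summed per gene.

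The PVN is the main neuroendocrine output of the hypothalamus. Its parvocellular neurons release thyrotropin-releasing hormone (Trh), corticotropin-releasing hormone and somatostatin (Sst) towards the pituitary gland, its magnocellular neurons release vasopressin and oxytocin into the blood, and its preautonomic neurons reach the brainstem and spinal cord. It also receives melanocortin and neuropeptide Y input from the arcuate nucleus and so takes part in the control of food intake, energy expenditure and the thyroid axis, all of which change with season in this species. Avp, Oxt and Crh were not analysed here.

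No gene passed the threshold between SP and LP in the PVN. Of 4436 genes with enough counts to test, 0 (0%) had a false discovery rate (FDR) below 0.1 by edgeR's quasi-likelihood test, and 82 (1.85%) had an unadjusted p below 0.05, of which 35 (0.789%) were higher and 47 (1.06%) were lower in SP. The LP and SP libraries did not separate without overlap for any of the 4436 genes (0%). With the other tests, DESeq2 called 0 genes with 96 (2.16%) at an unadjusted p below 0.05. An exact permutation test over the libraries called 0 with 88 (1.98%), and limma with voom and library weights called 9 with 260 (5.86%). P-values spread evenly from 0 to 1 would put a share of 0.05 below this limit. The first 3 tests lay under that share and limma above it, and the reason was not tested. The median standard error of a log2 fold change was 0.35, and the median 95% interval reached 0.70 to either side on the log2 scale, or 1.63-fold. For 3421 genes (77.1%) this half-width was below 1 on the log2 scale. It is the half-width of an unadjusted interval and not a detection limit. A gene had to pass the FDR over 4436 genes, so changes larger than this could also be missed. The standard errors follow from the F statistic, and for some genes the p of the test was larger than they would give. Psmb2, at -0.36 ± 0.19 (SE), had an unadjusted p of 0.229 by edgeR, and Thrsp, at -0.36 ± 0.34, 1 of 0.964. For such genes the interval is narrower than the test implies.

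The libraries differed widely in depth and in makeup. The 28 libraries held between 22217 and 998245 gene counts with a median of 167036, against a median of 1.27e+06 over 29 libraries of the mediobasal hypothalamus (MBH) and 1.63e+06 over 30 libraries of the dorsomedial hypothalamus (DMH) under the same conditions. A single gene listed as LOC118239032, whose product the files do not name, took between 0.696% and 54.99% of a library's counts. Its share was highest in 16-week replicate 3 (54.99%), LP replicate 6 (41.6%) and 16-week replicate 5 (32.2%). The libraries labelled 16-week replicate 3 and 20-week replicate 4 stood apart. The first had the fewest counts of the 28 and no read of Sst, Gal or Penk. The second had no read of Trh or Gal and 1 read each of Sst and Penk, but 1584 reads of Tcf7l2, a transcription factor that is abundant in the thalamus. For some of the values that these 2 libraries set, results are also given without them, and for others the library is named.

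**Figure D1:**
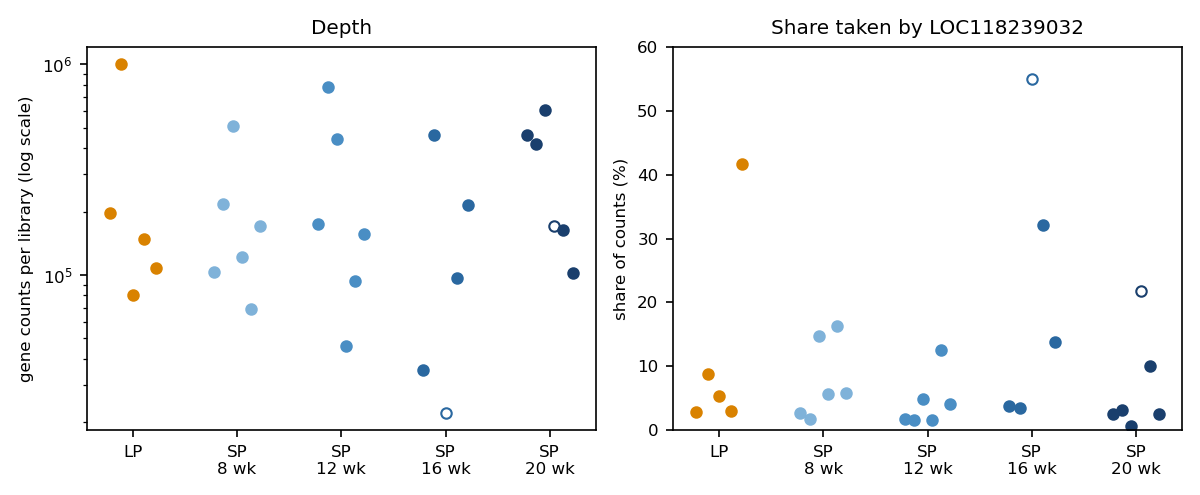
Total gene counts (left, log scale) and the percentage of counts taken by LOC118239032 (right, linear scale) in each of the 28 PVN libraries by group. Each point is a library, and the open points are 16-week replicate 3 and 20-week replicate 4. Depth ranges from 22217 to 998245 counts, and the share of LOC118239032 reaches 54.99% in 16-week replicate 3.

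None of the neuropeptide transcripts of the PVN passed the threshold between photoperiods, and the spread between hamsters left wide intervals around each difference. Trh, the releasing hormone of the thyroid axis, was at 13.5, 66.1, 149, 186 and 156 CPM (counts scaled to library size, with TMM normalisation) in LP replicates 2 to 6, and ranged from 0 to 398 with a median of 185 in the 23 SP libraries. The groups overlapped: 11 SP libraries lay above the highest LP library and 1, 20-week replicate 4, lay below the lowest. Trh had a log2 fold change of 0.76 ± 0.57 (SE), with a 95% interval from -0.39 to 1.91 and an adjusted p of 1.00 by edgeR. By week, its mean level was 183 ± 101 CPM (SD, n = 6) at 8 weeks, 166 ± 99.3 (n = 6) at 12 weeks, 142 ± 102 (n = 5) at 16 weeks and 189 ± 135 (n = 6) at 20 weeks, against 114 ± 71.7 (n = 5) in LP. The difference in mean log2 CPM between SP and LP was 0.52 (two-sided exact permutation test over the libraries, p = 0.439), and it was 0.77 without 16-week replicate 3 and 20-week replicate 4 (exact p = 0.144).

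Sst, which inhibits the release of growth hormone and thyrotropin, was at 18.1, 92.6, 80.3, 64.2 and 170 CPM in the LP libraries and ranged from 0 to 314 with a median of 121 in SP. Only 3 SP libraries exceeded the highest LP library, and 2, 16-week replicate 3 and 20-week replicate 4, lay below the lowest. The log2 fold change of Sst was 0.66 ± 0.47 (SE), with a 95% interval from -0.28 to 1.60 and an adjusted p of 1.00 by edgeR. In mean log2 CPM the difference was 0.38 (exact permutation p = 0.539) with all libraries and 0.69 without the 2 libraries above (exact permutation p = 0.0864). The intervals of Trh and Sst both included 0 and log2 fold changes above 1.

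Among the other peptides, galanin (Gal) averaged 54.9 ± 45.3 CPM (SD, n = 5) in LP and 76.0 ± 67.3 (n = 23) in SP, and the enkephalin precursor Penk averaged 105 ± 50.1 and 124 ± 65.1. The anorexigenic peptide precursor Cartpt averaged 190 ± 114 CPM in LP and 187 ± 136 in SP, a log2 fold change of 0.01 ± 0.51 (SE). Cholecystokinin (Cck) was at 153 ± 89.2 CPM in LP and 92.1 ± 98.6 in SP, and the tachykinin precursor Tac1 was at 38.9 ± 35.1 and 38.2 ± 34.9. Of the 19 peptide genes in the list, 16 were in the table and 7 had enough counts to test. None of the 7 had an unadjusted p below 0.05, 6 had a positive and 1 a negative log2 fold change, and their median was 0.29 against -0.02 over all 4436 genes. The remaining peptides, such as the dynorphin precursor Pdyn with 76 counts and Npy with 55 counts over the 28 libraries, were too sparse to test.

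**Figure D2:**
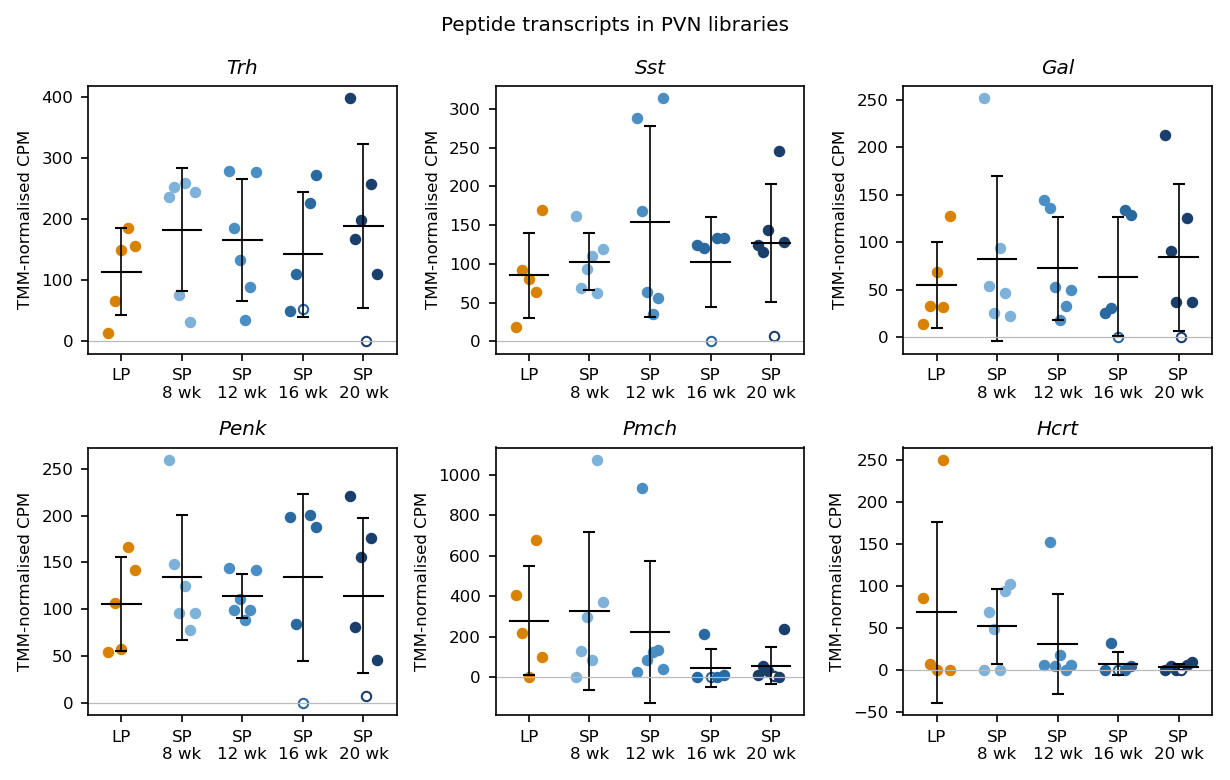
TMM-normalised CPM (linear scale) of 6 peptide transcripts in each PVN library by group, with the mean (horizontal line) and SD (error bar). Open points are 16-week replicate 3 and 20-week replicate 4. LP and SP libraries overlap for each peptide, with Trh between 0 and 398 CPM in SP and between 13.5 and 186 CPM in LP.

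The transcription factors that specify PVN neurons were near the limit of detection. Otp, needed for the parvocellular and magnocellular lineages, had 72 counts in all and was read in 4 of 5 LP and 16 of 23 SP libraries, at 7.73 ± 5.87 CPM (SD, n = 5) and 8.62 ± 7.40 (n = 23). Its difference in mean log2 CPM was 0.02 (exact permutation p = 0.959). Sim1, which acts in the same lineages, had 13 counts in all and was read in 1 LP and 9 SP libraries. Of the 12 genes of this list that were measured, Arnt2, the dimerisation partner of Sim1, was the only 1 tested, at a log2 fold change of 0.19 ± 0.41 (SE). Trh was thus read in 27 of 28 libraries and Otp in 20, and 20-week replicate 4 had neither.

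The genes with the smallest p among those higher in SP were mostly sparse in LP. Csnk1g1, a casein kinase of the gamma class, was at 18.1 and 25.4 CPM in LP replicates 2 and 3 and at 0 in the other 3 LP libraries, and ranged from 0 to 481 with a median of 73.3 in SP. The value of 481 was 9 counts in 16-week replicate 3, and the highest SP value without that library and 20-week replicate 4 was 348. It exceeded the highest LP library in 19 of 23 SP libraries, and its log2 fold change was 2.49 ± 0.83 (SE; unadjusted p = 0.00403, adjusted p = 1.00 by edgeR). Cul7, a scaffold of ubiquitin ligases, was read in 2 of 5 LP and 20 of 23 SP libraries, at 18.7 ± 26.2 and 90.5 ± 68.5 CPM, with a log2 fold change of 1.74 ± 0.58. Snrnp35, a component of the minor spliceosome, was at 18.1, 40.7, 22.9, 0 and 0 CPM in LP and at 0 to 284 with a median of 62.0 in SP.

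Gpbp1l1 was better covered, with 1051 counts and reads in all 28 libraries. It was at 58.7, 139, 45.9, 51.3 and 14.2 CPM in LP and from 39.2 to 338 with a median of 142 in SP, where 12 of 23 libraries lay above the highest LP library. Its log2 fold change was 1.02 ± 0.37 (SE; adjusted p = 1.00 by edgeR). The taurine transporter Slc6a6 (1.00 ± 0.41), Igip (0.88 ± 0.34), Tspyl1 (0.88 ± 0.34), Dnajc24, a co-chaperone of diphthamide synthesis (1.17 ± 0.46), the extracellular matrix gene Vit (2.97 ± 1.18) and LOC100766643 (1.01 ± 0.40) completed the 10 with the smallest p in this direction. None passed the threshold.

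In the other direction, Thada had the smallest p of all genes (unadjusted p = 0.00135 by edgeR). It was at 54.2, 39.7, 0, 32.1 and 70.9 CPM in LP and at 0 in 13 of 23 SP libraries, including all 5 at 16 weeks, with a log2 fold change of -2.55 ± 0.75 (SE; adjusted p = 1.00 by edgeR). Depdc5, a subunit of the GATOR1 complex that restrains mTORC1, was at 0, 68.2, 333, 154 and 113 CPM in LP and from 0 to 123 in SP. Its log2 fold change was -1.98 ± 0.66. Both genes rested on few reads, with 151 and 336 counts in total.

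Atpaf1, an assembly factor of the mitochondrial ATP synthase, was read in all LP libraries, at 58.7, 43.7, 45.9, 57.8 and 56.7 CPM. It ranged from 0 to 62.3 with a median of 22.2 in SP, and 20 of 23 SP libraries lay below the lowest LP library. Its log2 fold change was -1.09 ± 0.39 (SE; unadjusted p = 0.00724, adjusted p = 1.00 by edgeR). The entry Gabra4-2, listed apart from Gabra4 and named after the alpha4 subunit of the GABA-A receptor, was at 31.6, 47.8, 57.3, 51.3 and 70.9 CPM in LP and from 0 to 81.5 with a median of 14.2 in SP, where 18 of 23 libraries lay below the lowest LP library. Gabra4-2 had 168 counts in all, and reads may be split between the 2 entries, so its log2 fold change of -1.49 ± 0.55 (SE) is uncertain. Atpaf1 and Gabra4-2 were the only 2 of these 20 genes among the 9 that limma with voom and library weights called, at log2 fold changes of -1.02 and -1.72.

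The other 6 of the 10 lower genes with the smallest p were the polycomb gene Scmh1, the autophagy protease Atg4c, the postsynaptic scaffold Tanc1, the recombination gene Rad51c, the translation initiation factor Eif3k and the autophagy receptor Sqstm1. Their log2 fold changes lay between -2.79 (Scmh1) and -0.43 (Eif3k). Eif3k and Sqstm1 were the better covered, at 244 ± 68.5 and 193 ± 67.6 CPM (SD, n = 5) in LP and 183 ± 56.6 and 112 ± 43.2 (n = 23) in SP. Scmh1, Tanc1 and Rad51c had their highest level of the 28 libraries in LP replicate 6, the LP library with 41.6% of its counts from LOC118239032.

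**Figure D3:**
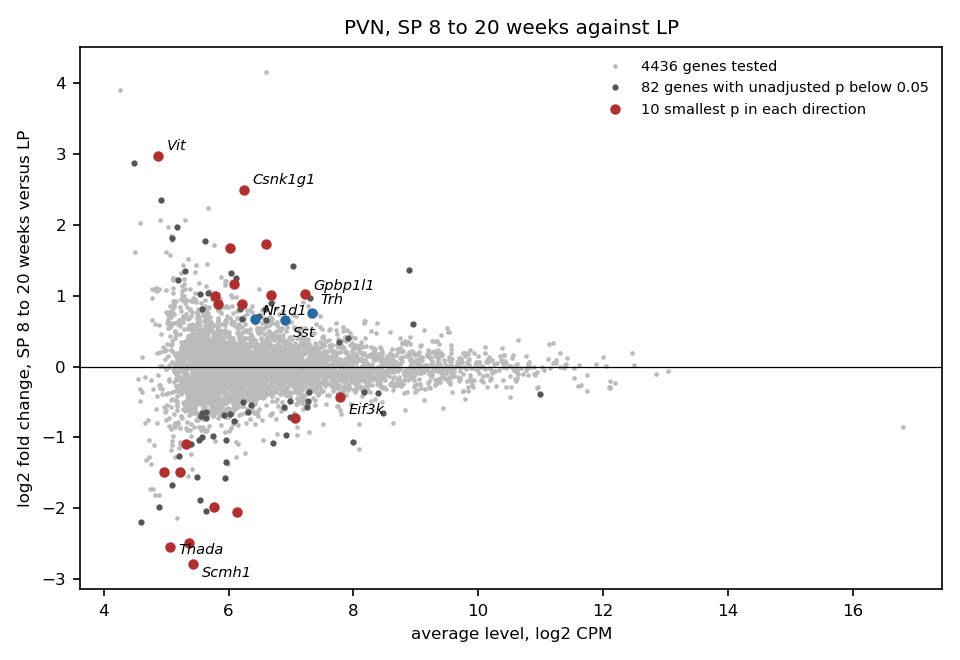
Log2 fold change of SP 8 to 20 weeks against LP (vertical axis) by average level in log2 CPM (horizontal axis) for the 4436 genes tested in the PVN. Dark points are the 82 genes with an unadjusted p below 0.05, red points the 10 smallest p in each direction, and blue points Trh, Sst and Nr1d1. The named genes lie mostly at low levels, where the fold changes scatter most, and none passes the FDR of 0.1.

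Of the circadian clock genes, 23 of 26 were in the table and 4 had enough counts to test. Nr1d1, which encodes the repressor REV-ERB alpha, was at 45.2, 74.3, 57.3, 38.5 and 14.2 CPM in LP and from 49.2 to 130 with a median of 74.9 in SP. Each of the 23 SP libraries read it, 13 lay above the highest LP library, and none lay below the lowest, although the groups overlapped. Its mean was 84.5 ± 25.6 CPM (SD, n = 6) at 8 weeks, 71.9 ± 13.4 (n = 6) at 12, 90.1 ± 24.4 (n = 5) at 16 and 79.5 ± 12.1 (n = 6) at 20 weeks, against 45.9 ± 22.3 (n = 5) in LP. The log2 fold change was 0.67 ± 0.22 (SE; unadjusted p = 0.0236, adjusted p = 1.00 by edgeR). This p is larger than the fold change and its standard error alone would give. The difference in mean log2 CPM was 0.82 (exact permutation p = 0.000651) and 0.80 without 16-week replicate 3 and 20-week replicate 4 (exact permutation p = 0.000912). Adjusted over all 4436 genes, the exact permutation p of Nr1d1 was 0.963, and 4 of the 5 LP values rested on 10 counts or fewer. All hamsters were killed in the same window after lights on, so the level is that of 1 window of the day. The light phase was longer in LP than in SP, so this window lay at a different time before lights off. A shift of the daily rhythm and a change in level cannot be told apart here. Rora, a nuclear receptor that activates the same promoters, was at -0.76 ± 0.40 and Arntl (BMAL1) at 1.06 ± 0.87, both without passing the unadjusted threshold, and the median of the 4 genes was 0.39.

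The thyroid hormone genes (5 tested of 21) had a median log2 fold change of -0.14 and the stress axis genes (3 of 23) -0.05, with no unadjusted p below 0.05. Thra, the receptor alpha of thyroid hormone, was at 0.30 ± 0.33 and the hormone transporter Slco1c1 at -0.14 ± 0.49. The 3 tested genes of melatonin and photoperiod signalling, Hdac4, Dnmt1 and Dnmt3a, lay between -0.39 and -0.13. The granins and prohormone processing enzymes (10 tested of 20) had a median of -0.05, and the abundant members Pcsk1n, an inhibitor of prohormone convertase 1, Cpe, which trims processed peptides, and the granin Scg2 were at 0.12 ± 0.29, -0.07 ± 0.18 and 0.02 ± 0.26 (SE). Heat shock and cold-inducible genes (18 tested of 31) had a median of 0.06, with the cold-inducible RNA-binding genes Cirbp at 0.05 ± 0.21 and Rbm3 at -0.17 ± 0.27. None of the immediate early genes was tested.

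Among synaptic vesicle genes, 24 of 31 were tested, with a median of -0.09. Rab3a, a vesicle GTPase, was the only 1 with an unadjusted p below 0.05, at 2418 ± 687 CPM (SD, n = 5) in LP and 1862 ± 469 (n = 23) in SP and a log2 fold change of -0.39 ± 0.19 (SE; adjusted p = 1.00 by edgeR). For GABA and glutamate signalling (17 tested of 44) the median was 0.13 and no gene passed the unadjusted threshold. The well-covered housekeeping groups had narrow ranges of fold changes, which are spreads between genes and not the precision of a single gene. The 74 cytosolic ribosomal protein genes had a median of 0.03 (range -0.31 to 0.36), the 55 nuclear subunits of oxidative phosphorylation -0.06 (-0.39 to 0.26) and the 32 proteasome subunits -0.05 (-0.36 to 0.28), with 0 genes at an unadjusted p below 0.05 in each group. The 2 lists of feeding receptors and of growth factors had only 3 and 2 tested genes, with medians of 0.01 and 0.61, the latter from Bdnf (1.22 ± 0.91) and Ntrk2, and 5 potassium channel genes had a median of -0.41. No collagen gene was tested.

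**Figure D4:**
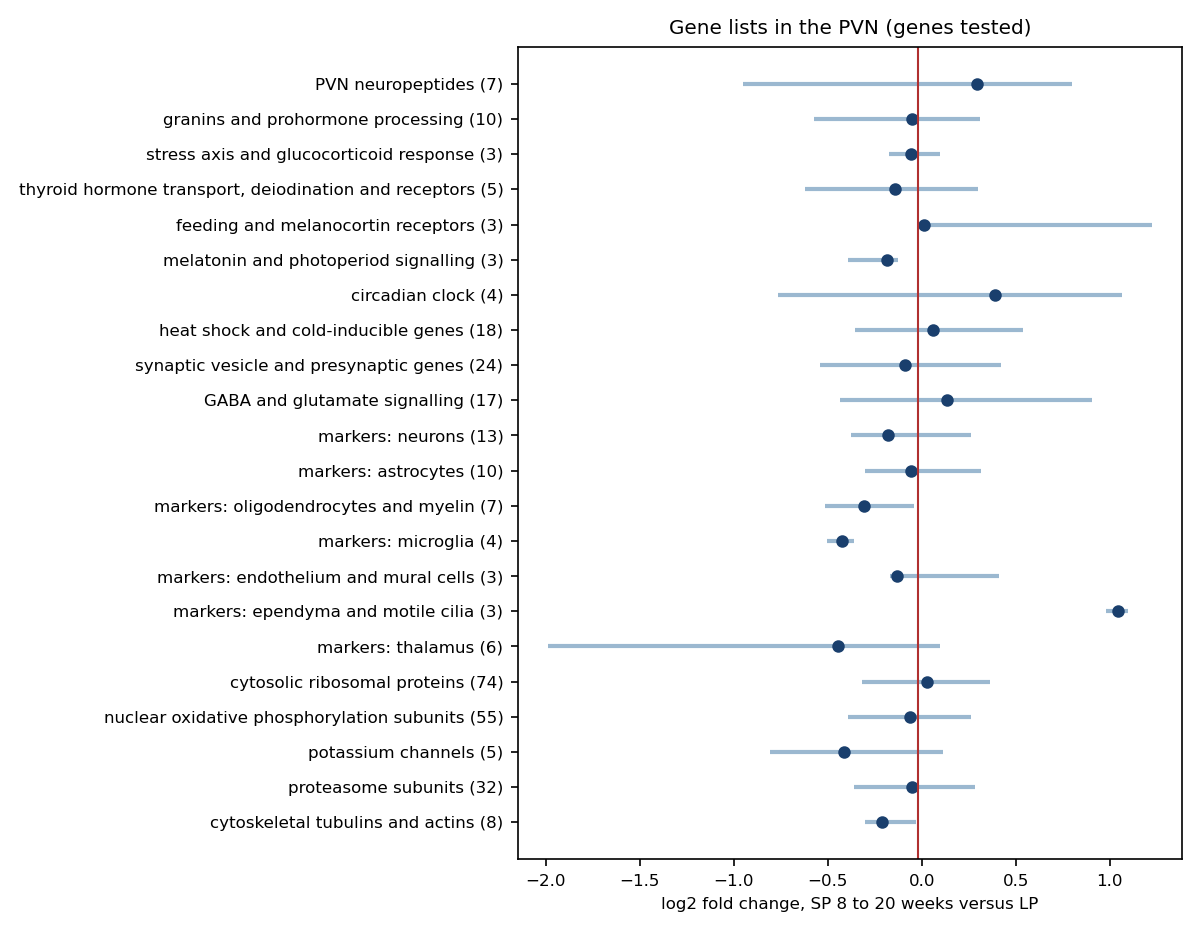
Median (point) and lowest to highest (bar) log2 fold change of SP 8 to 20 weeks against LP in the PVN for each gene list with at least 3 tested genes, with the number tested in parentheses. The red line marks the median of all 4436 genes (-0.02). The large lists of ribosomal, mitochondrial and proteasome genes lie within 0.4 of 0, and no list holds a gene past the FDR of 0.1.

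The 4 weeks of SP were also compared with LP one at a time, with the same 5 LP libraries in each. At 8 weeks 0 genes passed the FDR of 0.1 by edgeR and 68 (1.53%) had an unadjusted p below 0.05, at 12 weeks 0 and 88 (1.98%), at 16 weeks 0 and 201 (4.53%), and at 20 weeks 0 and 51 (1.15%). Over the 4 weeks of SP, 0 genes differed at the FDR of 0.1 and 108 (2.43%) at an unadjusted p below 0.05. DESeq2 called 0 genes at 8, 12 and 20 weeks. The genes with the smallest p were Cul7 at 8 weeks (log2 fold change 2.06 ± 0.66) and again at 20 weeks (2.02 ± 0.65), Gpbp1l1 at 12 weeks (1.54 ± 0.42) and Canx at 16 weeks (1.98 ± 0.44). Ehmt1, a histone methyltransferase, was second at 8 weeks (2.61 ± 0.90), Snrnp35 second at 12 weeks (2.31 ± 0.64) and Ccnl2, a cyclin of pre-mRNA splicing, second at 16 weeks (4.80 ± 1.23). Ccnl2 was at 0, 64.6, 481, 280 and 54.3 CPM in the 16-week libraries and was read in 1 of 5 LP libraries, and without 16-week replicate 3 its log2 fold change was 4.21 ± 1.24 (adjusted p = 0.999 by edgeR).

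Canx, the endoplasmic reticulum chaperone calnexin, had the smallest adjusted p of any comparison by edgeR, at 0.178 for 16 weeks and 0.125 over the 4 weeks. It was at 473, 284, 3473, 294 and 207 CPM in the 16-week libraries, where the value of 3473 was 65 counts in replicate 3, and at 257, 210, 80.3, 244 and 198 CPM in LP. DESeq2 called Canx at 16 weeks (adjusted p = 0.00542) and, with Celf6 and Chd5, over the weeks. Without 16-week replicate 3, the log2 fold change of Canx at 16 weeks was 0.58 ± 0.27 (SE), edgeR's smallest adjusted p became 0.999 at 16 weeks and 1.00 over the weeks, and the genes with an unadjusted p below 0.05 at 16 weeks went from 201 to 129.

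Transcripts of neighbouring hypothalamic and thalamic areas were read at widely varying levels. Pmch, which encodes melanin-concentrating hormone, and Hcrt, which encodes the orexins, are made by neurons of the lateral hypothalamus and not of the PVN. Pmch was at 406, 217, 0, 680 and 99.2 CPM in LP and from 0 to 1075 with a median of 55.1 in SP. Its mean was 327 ± 392 CPM (SD, n = 6) at 8 weeks, 225 ± 351 (n = 6) at 12, 44.6 ± 94.3 (n = 5) at 16 and 57.5 ± 90.3 (n = 6) at 20 weeks, with a log2 fold change of -1.17 ± 0.91 (SE) for the 4 weeks against LP. Hcrt was at 85.8, 7.12, 0, 250 and 0 CPM in LP and from 0 to 152 with a median of 4.94 in SP. Its mean was 52.2 ± 44.5 CPM (SD, n = 6) at 8 weeks and 3.37 ± 3.94 (n = 6) at 20 weeks, and neither gene passed the threshold among the weeks (unadjusted p = 0.124 for Pmch and 0.0530 for Hcrt by edgeR). Against LP, Hcrt had a log2 fold change of -2.04 ± 0.97 (unadjusted p = 0.0403, adjusted p = 1.00 by edgeR), and 1 LP library, replicate 5, held most of the LP level.

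The thalamus lies above the PVN, and its markers were abundant in these libraries. The summed level of 11 thalamic marker genes in the table ranged from 3968 to 6904 CPM in LP and from 160 to 14911 CPM in SP, a difference of -0.70 in log2 summed CPM (exact permutation p = 0.266, adjusted over 14 marker lists 0.672). Tcf7l2 made up most of it, at 2806 to 5035 CPM in LP and 0 to 11739 in SP. The lowest SP value was in 16-week replicate 3 and the highest in 20-week replicate 4. The thalamic sum was highest in 20-week replicate 4 (14911 CPM) and in 12-week replicates 4 and 5 (11742 and 11744 CPM), where Trh was at 0, 35.5 and 88.6 CPM. Prkcd, a marker of thalamic relay nuclei, was at 27.1, 95.6, 0, 19.3 and 42.5 CPM in LP and at 0 in 13 of 23 SP libraries, with 178 CPM in 20-week replicate 4. Its log2 fold change was -1.99 ± 0.82 (SE; adjusted p = 1.00 by edgeR), and it was among the 9 genes called by limma with voom and library weights, the others being Gabra4-2, Scrg1, Anxa11, Tle2, Stat6, Atpaf1, Pigp and Efcab10.

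None of the 14 marker lists differed between SP and LP after adjustment. The smallest exact permutation p was 0.0877 for oligodendrocyte precursors (25.7 to 99.2 CPM in LP, 39.2 to 153 in SP), and the adjusted p was between 0.672 and 0.901 for all lists. Neuronal markers summed to 4818 to 7595 CPM in LP and 2832 to 7368 in SP, astrocyte markers to 12249 to 18550 and 5397 to 17734, microglial markers to 244 to 488 and 0 to 390, and myelin markers to 1360 to 3283 and 534 to 3677. Ependymal and ciliary markers ranged from 58.7 to 298 CPM in LP and from 0 to 770 in SP, and their 3 tested genes Rsph1, Cfap126 and Ccdc153 had log2 fold changes between 0.98 and 1.10 without an unadjusted p below 0.05. Tanycyte markers were at 271 to 411 and 53.4 to 414 CPM, endothelial and mural markers at 567 to 966 and 107 to 990, and choroid plexus markers at 58.7 to 218 and 0 to 479. Arcuate and ventromedial markers were at 106 to 241 CPM in LP and 0 to 455 in SP, skeletal muscle markers at 0 to 339 and 13.3 to 277, blood markers at 11.5 to 85.0 and 0 to 107, and pituitary markers at 22.6 to 34.4 and 0 to 73.8. The lowest SP sums of neuronal, astrocyte, microglial, tanycyte, endothelial, myelin and thalamic markers were all in 16-week replicate 3, and over the 21 SP libraries without it and 20-week replicate 4 they were 5411, 8840, 174, 199, 547, 706 and 797 CPM. The ependymal, choroid plexus and arcuate sums of 0 were also in 16-week replicate 3. Without the same 2 libraries, their lowest SP sums were 71.1, 49.7 and 55.4 CPM. Gene by gene, 11 of 13 tested neuronal markers had a negative log2 fold change (median -0.18), with Thy1, a neuronal surface protein, the only 1 at an unadjusted p below 0.05. All 7 tested myelin genes (median -0.30) and all 4 microglial genes (-0.42) had negative values, 8 of 10 astrocyte genes did (-0.06), and so did all 8 tubulins and actins (-0.21), against 2328 of all 4436 genes. None of these passed the threshold. The gene-by-gene values include 16-week replicate 3, whose microglial sum was 0 CPM, and are not given without it. The median microglial sum was 304 CPM in LP and 286 in SP. The myelin sums followed the replicate number of the labels in part: the 4 SP libraries numbered 1, a number that LP lacked here, lay between 706 and 995 CPM, and the 3 numbered 4 lay between 2401 and 3677. With the replicate number as a block the median of the 7 myelin genes was -0.17, and without replicate 1 it was -0.13. The part of neighbouring tissue in the results above was not tested beyond these values.

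Across the 28 libraries some of the peptides varied together. Pmch and Hcrt correlated with r = 0.79 and Spearman's rho = 0.80 on log2 CPM (permutation p = 1e-05 for both, the smallest that 100000 permutations can give, adjusted p = 5.25e-05 and 0.00021 over 21 relations), and r was 0.78 without the 2 libraries farthest from the median of Pmch and 0.80 within the 23 SP libraries. Trh correlated with Sst (r = 0.74, rho = 0.68), Gal (r = 0.77, rho = 0.73) and Penk (r = 0.66, rho = 0.67), with adjusted permutation p of 0.00035, 5.25e-05 and 0.00285 for r and of 0.000588, 0.00021 and 0.000588 for rho. Without the 2 libraries farthest from the median of Trh, r was 0.59, 0.68 and 0.50, and within SP it was 0.73, 0.77 and 0.68. Neither Pmch nor Hcrt correlated with Trh (r = -0.14 and -0.08, adjusted permutation p of 0.752 and 0.955). These genes share library depth, and r of the log2 level with log2 total counts lay between 0.23 and 0.35.

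The thalamic sum and Trh gave r = -0.33 (adjusted permutation p = 0.217) and rho = -0.57 (adjusted permutation p = 0.00444) over the 28 libraries. Leaving out the 2 libraries farthest from the median thalamic sum, 12-week replicate 1 and 16-week replicate 3, r was -0.63, and over the 25 libraries with at least 50000 counts it was -0.60. For Sst, rho was -0.51 (adjusted permutation p = 0.0139) but r was 0.0031 with all libraries (adjusted permutation p = 0.987) and -0.68 without the 2 farthest. Over the 25 libraries with at least 50000 counts, r for Sst was -0.69. These 25 libraries include 12-week replicate 1 but not 16-week replicate 3. For both genes r was thus lower in the sets without 16-week replicate 3, also where 12-week replicate 1 was kept. Leaving out 16-week replicate 3 alone was not tested.

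**Figure D5:**
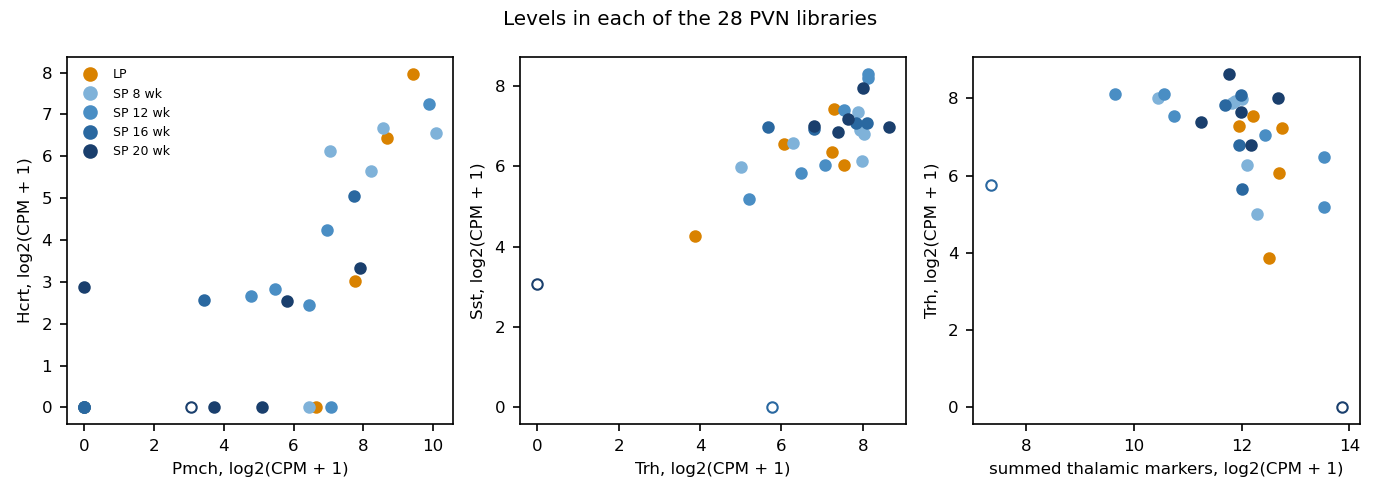
Level of Hcrt against Pmch (left), Sst against Trh (middle) and Trh against the summed thalamic markers (right) in each of the 28 PVN libraries, as log2(CPM + 1). Colours mark the groups and open points are 16-week replicate 3 and 20-week replicate 4. Hcrt rises with Pmch and Sst with Trh (r = 0.79 and 0.74), and 20-week replicate 4 combines the highest thalamic sum with no Trh.

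The same contrast in the deeper MBH libraries gave 11 of 9549 genes (0.115%) past the FDR of 0.1 by edgeR, 1 higher (0.0105%) and 10 lower (0.105%) in SP, and in the DMH it gave 9 of 7238 genes (0.124%), all lower. Several DMH libraries read few genes despite their depth, such as 20-week replicates 2, 3 and 4 (1334, 1932 and 1073 genes) and LP replicate 3 (2160). DMH 16-week replicate 3, by contrast, read 16931 genes. What this did to the DMH calls was not tested. The genes called in the MBH and DMH were chosen in other punches of the same hamsters, and 10 of the 11 MBH genes were in the PVN table. Tshb, the beta subunit of thyrotropin made in the pars tuberalis, had a log2 fold change of -8.33 ± 0.67 (SE) in the MBH (adjusted p = 1.11e-12 by edgeR). In the PVN it was at 9.03, 4.07, 22.9, 25.7 and 0 CPM in LP and from 0 to 50.3 with a median of 10.5 in SP. With 122 counts it was too sparse for the fit, and its difference in mean log2 CPM was 0.04 (exact permutation p = 0.946).

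Vim, the intermediate filament vimentin of tanycytes and other glia, had a log2 fold change of -1.38 ± 0.25 (SE) in the MBH. Its 95% interval there was from -1.89 to -0.87. In the PVN Vim was at -0.05 ± 0.41, with an interval from -0.89 to 0.78, so the intervals overlapped slightly. The difference of Vim in mean log2 CPM in the PVN was -0.47 (exact permutation p = 0.369). The muscle troponin Tnnt3 was at -6.16 ± 1.22 in the MBH and at -2.20 ± 0.95 in the PVN (unadjusted p = 0.0252, adjusted p = 1.00 by edgeR), where 2 LP and 6 SP libraries read it. Its highest LP library was at 226 CPM against an LP mean of 55.3, and its exact permutation p was 0.321. Pvalb, also on the skeletal muscle list, was at -2.88 ± 0.67 in the MBH and -0.02 ± 0.62 in the PVN. Of the 9 genes called in the DMH, 7 were in the PVN table, and the 2 that were tested there, Relch and Tia1, had PVN log2 fold changes of 0.83 ± 0.74 and -0.25 ± 0.68 against -4.89 ± 0.93 and -4.34 ± 0.96 in the DMH. The difference between the tissues was not tested, and the PVN table shared 0 of its 35465 isoform identifiers with the MBH and DMH tables.

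The peptides compared side by side gave log2 fold changes of Sst of 0.98 ± 0.32 (SE) in the MBH, -0.62 ± 0.58 in the DMH and 0.66 ± 0.47 in the PVN, and of Gal of 0.66 ± 0.31, -0.08 ± 0.71 and 0.80 ± 0.69. None passed the FDR of 0.1 in any of the 3 tissues by edgeR.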

How the data were processed

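The members and gene lists were chosen with earlier results of these data known. The authors deposited expected counts per isoform and tissue, not normalised; the study's methods name Salmon after Minimap2 alignment against GRCm39, a mouse build, but the PVN table shares 0 isoform identifiers with the MBH and DMH tables, so which reference it was made with is unclear. For the 35465 isoforms of the PVN table, 99.6% of the values above 0 were whole within 1e-06. Counts were summed per gene symbol (18960) and rounded. The 4436 genes kept by filterByExpr held 90.5% of counts. SP 8 to 20 weeks (mean of the 4 weeks) was contrasted with LP in a fit of all 52 PVN libraries of 9 groups with TMM and edgeR 4.0.16 (the older quasi-likelihood method), with a Benjamini-Hochberg FDR below 0.1. Standard errors follow from F. Genes were named as the 10 smallest p per direction, the 5 smallest per week, set PVN genes and the most abundant members of each list. Log2 CPM used a prior count of 2 and summed markers a pseudocount of 1. Exact permutation tests were two-sided over 98280 splits of 28 libraries. The alternatives used DESeq2 1.42.0 and limma 3.58.1, and the fits were tested on simulated data. Labels do not name batches, and p-values measure the spread between hamsters given as separate samples. Pituitary libraries were not used. The result for 1 gene is not reported here.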

Additional observations from a re-analysis of the deposited data

Results flagged for a closer look

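Single libraries lay far from the others of their group for 24 of 127 combinations of a group and a measure (18.9%). Dixon's test flags about 1 in 20 groups by chance for normally distributed values, which skewed CPM with many zeros are not. The total count was highest in LP replicate 3 (998245) and 8-week replicate 3 (506545). LOC118239032 was highest in LP replicate 6 (634726 CPM), 12-week replicate 5 (128875 CPM) and 20-week replicate 4 (277062 CPM). Pmch was highest in 8-week replicate 5 (1075 CPM), 12-week replicate 2 (937 CPM), 16-week replicate 2 (213 CPM) and 20-week replicate 6 (237 CPM), and Hcrt in 12-week replicate 2 (152 CPM) and 16-week replicate 2 (32.3 CPM). Sst was lowest, at 0 CPM, in 16-week replicate 3.

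Among the genes with the smallest p, Tanc1 (567 CPM) and Rad51c (227 CPM) were highest in LP replicate 6, and Vit was read in LP replicate 3 alone among the LP libraries (5.09 CPM) and stood out in 16-week replicate 1 (74.6 CPM). Tanc1 (222 CPM) and Gabra4-2 (81.5 CPM) were also high in 20-week replicate 4, Csnk1g1 (192 CPM) in 20-week replicate 6, Cul7 (264 CPM) in 20-week replicate 5 and Depdc5 (93.5 CPM) in 20-week replicate 2. In 12-week replicate 4, Igip (160 CPM) and Slc6a6 (142 CPM) were high and Cul7 was at 0 CPM. What set these libraries apart was not tested.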

How the results depend on the processing

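The comparison of SP with LP gave 0 genes under 31 of 33 settings, the reported one included. It gave 2 genes, Dennd3 and LOC103163754, when no filter on low counts was used (18946 genes) and 9 by limma with voom and library weights, and the genes with an unadjusted p below 0.05 ranged from 56 to 831. By limma with voom and library weights there were 1, 10, 2 and 4 genes at 8, 12, 16 and 20 weeks and 1 among the weeks. At 16 weeks DESeq2 gave 1 gene and the newer method of edgeR 4 gave 2, and among the weeks DESeq2 gave 3. Leaving out each replicate number in turn gave 0 to 1 genes at 16 weeks (Canx without replicate 2) and 0 to 1 among the weeks (Canx without replicates 2 or 6, Cplane1 without replicate 3). Without LP replicate 3, the deepest library, 170 genes had an unadjusted p below 0.05 in place of 82, with 0 called. With the replicate number as a block 0 genes were called and 105 had an unadjusted p below 0.05; libraries of the same number correlated with a median of 0.04 in their deviations (range -0.18 to 0.36), so not every pair exceeded 0.1 and the numbers were not taken to pair the hamsters, although 14 of 28 libraries were closest to their own number with 52 of 313 pairs of the same number, a hint from the data that libraries of 1 number share something. The 20 genes with the smallest p, Trh and Sst kept their direction under each setting that gave a value. Those 20 genes were chosen by their p in these same libraries, and the settings share most of the libraries. Their kept direction therefore does not bear on whether the differences are real.

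The marker lists stayed above an adjusted p of 0.1 in each setting. The difference in log2 summed CPM changed sign for choroid plexus (0.066) and blood (0.30) without libraries under 50000 counts, for endothelial and mural (0.024) and blood (0.12) markers without 16-week replicate 3 and 20-week replicate 4, and, leaving out 1 LP library at a time, for ependymal markers (-0.061 without replicate 2, up to 0.52), blood (0.085 without replicate 6, down to -0.61) and skeletal muscle (-0.41 without replicate 6, up to 1.69). Voom with weights, the exact permutation test over all genes and the settings without named libraries or LOC118239032 were chosen after the data had been seen, and the cause of the differences between methods was not tested. Depth was 1 limit: the median library held 167036 counts, and genes such as Sim1 and Otp could not be tested.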
